A study of Mus musculus with 48 samples.

Results

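The genes described here are the kinesin motors of the mouse that carry a Kif number. Members were all genes whose symbol in the platform annotation was Kif followed by a number and, where present, a letter, which gave 37 of the 18193 genes measured. Kinesins use ATP to walk along or to dismantle microtubules. Some members build and move the mitotic spindle and split the cell at its end, and their transcripts are typically made in dividing cells. Others carry vesicles, organelles, RNA or ciliary components, and in muscle fibres the conventional kinesin that Kif5b encodes is known for spacing nuclei and placing mitochondria. By textbook role, 12 members were grouped as mitotic, 15 as transport and 10 as other kinesins.

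The samples were C2C12 cells, an established mouse myoblast line that leaves the cell cycle and fuses into multinucleated myotubes when serum is lowered. RNA, 5 µg per array, was hybridised to 48 Affymetrix MOE430v2 arrays, with 3 arrays in each of 16 groups. Cells in growth medium, DMEM with 20% fetal bovine serum, were collected 24 h before induction (-24 h) and at induction (0 h). Cells moved to 2% horse serum were collected after 0.5, 1, 1.5, 2, 3, 6, 9, 12, 24, 48, 96 and 144 h. In 2 further groups, 50 µM cycloheximide, an inhibitor of protein synthesis, was added 1 h before induction and the cells were harvested 1 h and 3 h after it. The labels describe the triplicates as growths of successive passages on separate plates of 1 cell line, so p-values measure only the spread between such cultures. Later than 0 h, growth medium was not sampled, and effects of the medium cannot be told apart from those of time in culture. In RNA from whole cultures, fewer cells of a type and less RNA per cell cannot be told apart.

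Levels are given on the log2 scale of the deposited RMA values, a normalized probe intensity on which 1 unit is a doubling. Each gene was represented by its brightest probe set on average, and levels of different genes are not compared because their probes differ. Differences come from 1 limma model over all arrays, and a gene was called when its p-value, adjusted over 18193 genes by the Benjamini-Hochberg method, was under 0.05. Within groups, arrays correlated at 0.982 to 0.995 over all genes, and the excess of 3′ over 5′ control probes for Actb ran from 0.25 to 0.36 in the group means. Of 9 muscle differentiation markers, 7 rose and 1 fell at 144 h against 0 h, beside 13.5% of all genes risen and 14.9% fallen. Ckm, muscle creatine kinase, rose by 5.66 and Myh3, embryonic myosin heavy chain, by 5.56, while the satellite cell factor Myf5 fell by 2.49. The summed log2 level of the 9 muscle markers was already higher at 0 h than at -24 h. It was 57.1 to 59.4 at -24 h, 73.5 to 85.6 at 0 h and 101.8 to 106.1 at 144 h. The 0 h cells, to which most differences refer, thus already held part of this rise. The adipocyte, leukocyte and bone and cartilage markers reached a group mean of 6 in no group, which is 0 of 5 genes in each list. Of 6 neuron markers, that level was reached by 3 at -24 h, by 2 at 0 h and by 0 at 144 h. Their summed log2 level was 30.7 to 32.9 at 0 h and 23.5 to 25.4 at 144 h. Of 4 smooth muscle markers, 3 reached a mean of 6 in each of these groups, and their summed log2 level was 26.0 to 28.3 at 0 h and 29.4 to 30.6 at 144 h. The part of these markers in the kinesin values was not tested.

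Promoter sequences are shown for 8 members, which are the mitotic kinesins called as fallen at 144 h against 0 h that have a RefSeq entry (7 of 8, without Kif20a) and Kif26b, the member with the largest rise. Each is the 120 bases just before the start of the gene, read 5′ to 3′ on the strand of the gene, from RefSeq on build GRCm38.p6. Capitals mark the letters CCAAT and TTTGAA on either strand, so that ATTGG and TTCAAA are the same motifs on the opposite strand. CCAAT boxes and the TTTGAA element (the cell cycle homology region) are known from promoters of genes used in the G2 and M phases.
Kif11: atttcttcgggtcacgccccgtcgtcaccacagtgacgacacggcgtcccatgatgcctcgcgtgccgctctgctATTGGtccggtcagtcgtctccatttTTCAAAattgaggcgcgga
Kif22: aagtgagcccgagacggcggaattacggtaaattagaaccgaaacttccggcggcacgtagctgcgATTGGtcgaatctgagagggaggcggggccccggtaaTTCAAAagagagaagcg
Kif18b: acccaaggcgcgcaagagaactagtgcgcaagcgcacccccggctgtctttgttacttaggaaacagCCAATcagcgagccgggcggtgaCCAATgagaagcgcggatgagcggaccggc
Kif23: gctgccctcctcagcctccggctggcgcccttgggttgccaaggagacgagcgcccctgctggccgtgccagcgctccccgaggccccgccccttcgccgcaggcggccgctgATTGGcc
Kif4: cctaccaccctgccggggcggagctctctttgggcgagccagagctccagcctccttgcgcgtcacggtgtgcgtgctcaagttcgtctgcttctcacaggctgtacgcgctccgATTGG
Kif2c: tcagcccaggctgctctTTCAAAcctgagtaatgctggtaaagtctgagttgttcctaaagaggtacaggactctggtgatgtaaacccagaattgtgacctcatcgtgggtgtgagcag
Kif20b: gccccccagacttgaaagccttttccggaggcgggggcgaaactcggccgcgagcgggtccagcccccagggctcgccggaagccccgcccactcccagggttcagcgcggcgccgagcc
Kif26b: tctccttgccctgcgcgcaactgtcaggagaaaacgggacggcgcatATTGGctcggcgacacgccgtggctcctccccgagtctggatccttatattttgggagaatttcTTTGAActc
The windows lie at chr19:37376262-37376381, plus strand, for Kif11, at chr7:127042421-127042540, minus strand, for Kif22, at chr11:102925125-102925244, minus strand, for Kif18b, at chr9:61946800-61946919, minus strand, for Kif23, at chrX:100625945-100626064, plus strand, for Kif4, at chr4:117178773-117178892, minus strand, for Kif2c, at chr19:34922238-34922357, plus strand, for Kif20b, and at chr1:178529005-178529124, plus strand, for Kif26b. In Kif11 the CCAAT letters lay 45 to 41 bases and the TTTGAA letters 19 to 14 bases before the start, and in Kif22 they lay 54 to 50 and 17 to 12 bases before it. Kif18b held CCAAT at 53 to 49 and at 30 to 26 bases and Kif23 at 7 to 3 bases, without TTTGAA in the stretch shown. Kif4 held CCAAT at 5 to 1 bases and no TTTGAA, Kif2c held TTTGAA at 103 to 98 bases and no CCAAT, and Kif20b held neither motif in this stretch. The promoter of Kif26b, a gene with the opposite course, also held both motifs, CCAAT 73 to 69 bases and TTTGAA 9 to 4 bases before the start.

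In all, 31 of the 37 genes matched a RefSeq promoter entry, with 35 windows of 250 bases before the start. TTTGAA was present in 5 of 11 windows of mitotic kinesins, 1 of 13 of transport kinesins and 2 of 11 of other kinesins, and in 16% of all 32851 windows. CCAAT was present in 7 of 11, 4 of 13 and 4 of 11 windows of these groups, and in 33.8% of all windows. Among the mitotic kinesins, TTTGAA lay in windows of Kif2c, Kif11, Kif14, Kif15 and Kif22. CCAAT lay in those of Kif4, Kif11, Kif14, Kif18b, Kif22, Kif23 and Kif24. Of these, Kif14 and Kif15 were called at no time against 0 h in the model over all arrays, and Kif24 rose at 24 and 48 h. The E2F-type letters GCGGGAA were found in 0, 0 and 2 windows, and in 3.82% of all windows. The E-box letters CAGCTG were found in 0, 2 and 1 windows, and in 13% of all windows. Both strands were searched, and no match overlapped another in the stretches shown. These matches describe the letters of the windows, and no binding was measured.

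Over the 12 differentiation times, 20 of 37 kinesins differed from 0 h by limma's moderated F-test, against 38.2% of all genes. They were 9 mitotic members (Kif2c, Kif4, Kif11, Kif18a, Kif18b, Kif20a, Kif20b, Kif22, Kif23) and Kif24, the transport members Kif1b, Kif1c, Kif3a, Kif13b, Kif16b, Kif21a and Kif21b, and Kif2a, Kif26a and Kif26b. Tested time by time, 23 members were called at 1 or more times, and 22 of them at 24 h or later only. No member was called at 0.5, 1, 1.5, 2, 3 or 6 h in limma, where 0.0385%, 0.192%, 0.423%, 0.517%, 0.39% and 0.506% of all genes were called. The unadjusted p was under 0.05 for 1, 1, 6, 2, 2 and 2 members at these times. At any time from 0.5 to 12 h, 1 member was called, against 3.96% of all genes, and 13 had an unadjusted p under 0.05. Nearest to a call among the rest was Kif21b, which limits microtubule growth, with a difference of -0.57 (SE 0.14, adjusted p = 0.0575) at 3 h. With the replicate number as a block, Kif21b was called as lower at 3, 6 and 9 h and Kif16b at 12 h.

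**Figure D1:**
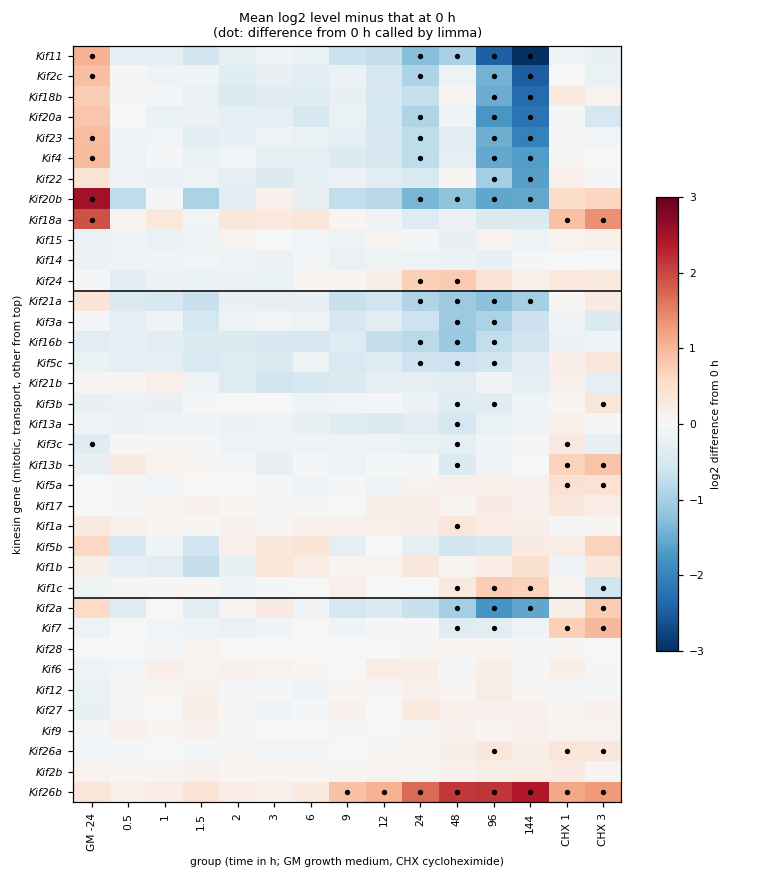
The grid shows, for each of the 37 kinesin genes (rows, grouped by role) and each group of arrays (columns), the mean log2 level minus the mean at 0 h, with a dot where limma called the difference at an adjusted p under 0.05; the dot in the -24 h column belongs to 0 h against -24 h. Most mitotic rows turn low at 24 h, less so at 48 h and most at 96 and 144 h, while the row of Kif26b is high from 9 h.

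At 24 h against 0 h, 2 members rose and 9 fell, and 14% of all genes were called, 6.56% as risen and 7.42% as fallen. At 48 h, 4 rose and 12 fell, with 26.7% of all genes called (12.4% risen and 14.3% fallen). At 96 h, 3 rose and 15 fell, with 32.6% of all genes called (15.5% and 17.1%). At 144 h, 2 rose and 10 fell, with 28.4% of all genes called (13.5% and 14.9%). The share of members that fell was thus 24.3%, 32.4%, 40.5% and 27% at these times, above the share of all genes. After centring on housekeeping genes the split over all genes moved from 2259 risen and 2595 fallen to 1440 and 3167 at 48 h, and from 2820 and 3104 to 1946 and 3401 at 96 h. With it, 2 members rose and 13 fell at 48 h, and 2 rose and 15 fell at 96 h. These comparisons share the 0 h arrays. The arrays of the 2 groups did not overlap for 35.3%, 38.4%, 41.9% and 36.3% of all genes, for 28.7% at 0 h against -24 h, and for 38.9% and 49.4% in cycloheximide at 1 h and 3 h. The median difference over the 37 members was -0.18, -0.18, -0.19 and -0.10, and over all genes 0.05, 0.06, 0.07 and 0.04. The count at 24 h depended on single arrays. It was 6 without 0 h replicate 3 or without 24 h replicate 1 and 7 without 24 h replicate 2 or 3, against 11 with all arrays. At 48 h, 10 members in place of 16 were called without 48 h replicate 2. With the replicate number as a block, Kif18b (lower) and Kif27 (higher) were called in addition at 24 h, Kif21b (lower) at 48 h, and Kif14 (lower) and Kif24 (higher) at 96 h.

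Most mitotic kinesins were lower in differentiated than in growing cells, and part of the difference was present at induction. Between -24 h and 0 h, before the serum was lowered, 6 of 12 fell and none rose. Of all genes, 5.86% fell and 7.26% rose. With the replicate number as a block, Kif18b and Kif20a were called as fallen there too. At 24 h against 0 h, 6 fell and 1 rose, and at 48 h, 2 fell and 1 rose. At 96 h and at 144 h, 8 fell and none rose. Of all genes, 7.42%, 14.3%, 17.1% and 14.9% fell at 24, 48, 96 and 144 h, and 6.56%, 12.4%, 15.5% and 13.5% rose. At 24 h, the calls of Kif4 and Kif11 were kept without each array. Those of Kif2c, Kif20a, Kif20b and Kif23 were lost without some single arrays, for Kif20a without any 1 of the arrays compared. Kif2c and Kif20a also lost theirs after quantile normalization again. That of Kif2c was lost too on the mean of its 4 probe sets, at -0.53 (adjusted p = 0.0889). Without _x_at and _s_at probe sets Kif2c was not called either, at -0.71 (adjusted p = 0.123). Only 1 of its 4 probe sets was called as fallen at 24 h. At 48 h, the calls of Kif11 and Kif20b were lost without some single arrays. The median difference of the 12 was -0.86 at 0 h against -24 h, then -0.73, -0.18, -1.45 and -1.66 at 24, 48, 96 and 144 h against 0 h.

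Kif11 encodes the motor that pushes the spindle poles apart, and it had the largest fall at 144 h. Its arrays read 8.04, 8.02 and 8.19 at -24 h and 6.78, 7.06 and 7.26 at 0 h. They read 5.98, 5.66 and 5.66 at 24 h, 6.40, 5.48 and 6.33 at 48 h, 4.26, 3.99 and 5.49 at 96 h and 3.75, 4.09 and 4.11 at 144 h. All arrays from 24 h on lay below all 0 h arrays, the 0 h arrays lay below those of -24 h, and the third 96 h array stood above the other two. The difference at 144 h was -3.05 (SE 0.26, adjusted p = 3.27e-12), and against -24 h it was -4.10 (SE 0.26, adjusted p = 6.74e-16). The 144 h mean of 3.98 lay below the array medians over all genes, 4.0 to 4.16 in the arrays without cycloheximide, so no fold is given.

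Kif2c encodes a motor that dismantles microtubules at the centromere. Its arrays read 8.98, 8.91 and 8.87 at -24 h, 8.09, 8.15 and 7.84 at 0 h and 7.15, 7.09 and 7.04 at 24 h. They read 7.98, 7.84 and 7.81 at 48 h, 6.07, 6.28 and 7.44 at 96 h and 4.58, 5.89 and 6.20 at 144 h. The 48 h arrays nearly reached those of 0 h, with overlap, while every array at 24, 96 and 144 h was below 0 h. The difference at 144 h was -2.47 (SE 0.30, adjusted p = 1.77e-08) or 5.55-fold lower. Its call at 0 h against -24 h, -0.89 (SE 0.30, adjusted p = 0.0412), was lost without any 1 of the 6 arrays, at adjusted p between 0.0686 and 0.133.

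Kif20a and Kif23 are motors of the central spindle and are needed for cytokinesis. The Kif20a arrays read 8.88, 9.13 and 8.92 at 0 h, 8.08, 8.16 and 8.01 at 24 h and 8.74, 8.97 and 8.83 at 48 h. They then read 6.78, 6.77 and 8.17 at 96 h and 5.73, 7.49 and 7.07 at 144 h, against 9.81, 9.86 and 9.76 at -24 h. The first array was the lowest at 144 h and the third the highest at 96 h, and neither group overlapped 0 h. The difference at 144 h was -2.21 (SE 0.30, adjusted p = 2.16e-07). Kif23 read 9.07, 8.92 and 9.00 at -24 h, 8.13, 8.05 and 8.02 at 0 h and 7.50, 7.29 and 7.12 at 24 h. It read 8.01, 7.29 and 7.89 at 48 h, 6.10, 6.33 and 7.36 at 96 h and 5.57, 6.33 and 6.20 at 144 h, with all arrays from 24 h on below 0 h. The difference at 144 h was -2.03 (SE 0.22, adjusted p = 2.38e-09).

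Kif18b, a relative of Kif18a that trims the plus ends of astral microtubules, was not called until 96 h. Its arrays read 8.18, 8.17 and 7.98 at -24 h, 7.51, 7.49 and 7.14 at 0 h and 6.96, 6.84 and 6.26 at 24 h. They read 7.73, 7.34 and 7.33 at 48 h, 5.38, 6.03 and 6.26 at 96 h and 4.48, 5.67 and 5.05 at 144 h. The 48 h arrays overlapped 0 h, and the 96 and 144 h arrays lay below both. The difference at 144 h was -2.31 (SE 0.27, adjusted p = 6.87e-09).

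Kif4 and Kif22 are chromokinesins, motors that bind chromosome arms. Kif4 read 8.04, 7.89 and 7.90 at -24 h, 6.90, 7.09 and 6.99 at 0 h and 6.36, 6.19 and 6.13 at 24 h. It read 7.06, 6.27 and 6.76 at 48 h, 4.74, 5.39 and 6.22 at 96 h and 5.04, 5.38 and 5.52 at 144 h. Its 48 h arrays overlapped 0 h, and the difference at 144 h was -1.68 (SE 0.21, adjusted p = 3.87e-08). Kif22 read 10.73, 10.42 and 10.74 at -24 h, 10.04, 10.33 and 10.28 at 0 h, 9.63, 9.83 and 9.81 at 24 h and 10.25, 10.31 and 10.29 at 48 h. It read 8.54, 9.23 and 9.85 at 96 h and 7.33, 9.10 and 9.32 at 144 h, where the first array was the lowest in both groups. Kif22 fell by 1.63 (SE 0.28, adjusted p = 1.47e-05) at 144 h. Its difference at 96 h, -1.01 (SE 0.28, adjusted p = 0.00491), was not called without 96 h replicate 1, at -0.68 (adjusted p = 0.0753).

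Kif20b and Kif18a were already much lower at 0 h than at -24 h, before the serum was lowered. Kif20b, a kinesin of late cytokinesis, read 7.34, 7.18 and 7.32 at -24 h and 4.36, 4.02 and 5.89 at 0 h. The 0 h arrays were below -24 h without overlap but far apart from one another. The difference was -2.53 (SE 0.45, adjusted p = 8.61e-05) or 5.76-fold lower. Its arrays then read 3.49, 3.30 and 3.38 at 24 h and 3.28, 3.55 and 2.84 at 144 h, below those of 0 h, and both group means (3.39 and 3.23) lay below the array medians over all genes. The difference of 144 h from 0 h was -1.53 (SE 0.45, adjusted p = 0.008). It was -0.96 (adjusted p = 0.144) without 0 h replicate 3, the high array. The calls at 24, 48 and 96 h were lost without it too, at -0.80, -0.64 and -0.99 (adjusted p = 0.323, 0.38 and 0.119). Of the 4 Kif20b probe sets, 2 were called as fallen at 0 h against -24 h. Only the chosen 1 was at 24, 48, 96 and 144 h against 0 h. The mean of these probe sets was not called at 24 and 48 h, at -0.37 and -0.28 (adjusted p = 0.0742 and 0.146). It was called as fallen at 96 and 144 h. Kif18a, which shortens microtubules at kinetochores and so steadies the chromosomes at the equator, read 6.66, 6.48 and 6.38 at -24 h and 4.39, 4.60 and 4.77 at 0 h. The groups did not overlap, and the difference was -1.92 (SE 0.25, adjusted p = 6.31e-07) or 3.78-fold lower. At 144 h it read 4.05, 4.07 and 4.38, and the difference from 0 h was not called, at -0.42 (SE 0.25, adjusted p = 0.234).

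At 0 h against -24 h the other fallen members were Kif4, at -0.95 (SE 0.21, adjusted p = 0.00136), Kif11, at -1.05 (SE 0.26, adjusted p = 0.00356), and Kif23, at -0.93 (SE 0.22, adjusted p = 0.00296). In all, 7 of 37 members were called, 1 risen and 6 fallen, against 13.1% of all genes (7.26% risen and 5.86% fallen). After centring on housekeeping genes 2396 genes rose and 659 fell, in place of 1321 and 1067, and of the members 2 rose and 5 fell. The 6 fallen members were mitotic, including Kif2c, Kif18a and Kif20b above, and the risen one, Kif3c, is a heavy chain of kinesin-2. Kif3c read 7.42, 7.72 and 7.61 at -24 h and 8.05, 7.96 and 7.81 at 0 h, a difference of 0.36 (SE 0.10, adjusted p = 0.0107). That call was lost without -24 h replicate 1, at 0.28 (adjusted p = 0.132), and without 0 h replicate 1, at 0.31 (adjusted p = 0.0831).

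The remaining mitotic members did not follow this course. Kif24, a centriolar kinesin that shortens microtubules and restrains cilia, read 5.57, 5.64 and 5.74 at 0 h, 6.74, 6.14 and 6.20 at 24 h and 6.62, 6.09 and 6.56 at 48 h. All 6 later arrays were above 0 h. It rose by 0.71 (SE 0.16, adjusted p = 0.00243) at 24 h and by 0.77 (SE 0.16, adjusted p = 0.000404) at 48 h, and was not called at 144 h, at 0.16 (SE 0.16, adjusted p = 0.54). The call at 24 h was lost without 24 h replicate 1, at 0.52 (adjusted p = 0.051). Kif14 and Kif15 had group means of 2.83 to 3.08 and 3.95 to 4.31, below 6 in every group, and neither was called at any time against 0 h or at 0 h against -24 h.

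**Figure D2:**
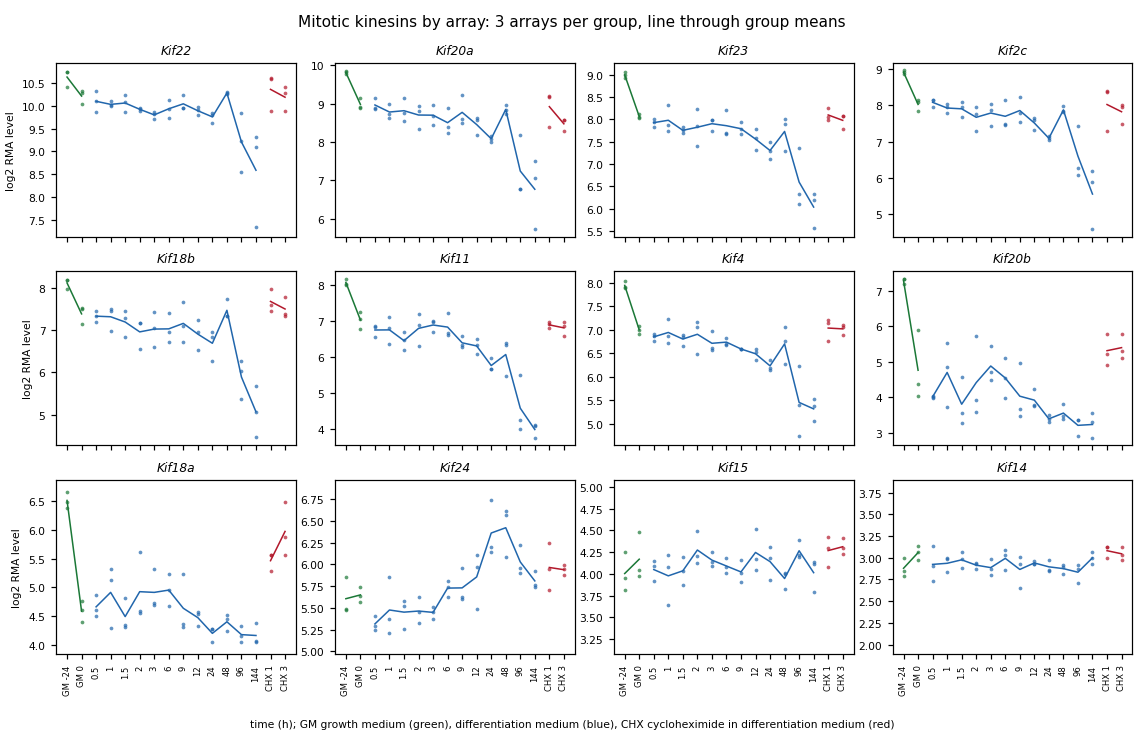
Each panel shows a mitotic kinesin, with the 3 arrays of a group as dots and a line through the group means on the log2 scale of the RMA level; green marks growth medium, blue differentiation and red cycloheximide, and the axes differ between panels. Kif11, Kif2c, Kif20a, Kif18b, Kif23 and Kif4 step down to 24 h, stand higher at 48 h and reach their lowest means at 144 h, while Kif24 peaks at 48 h.

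The dip at 24 h and the higher values at 48 h were examined by comparing neighbouring times. Between 12 and 24 h, and between 24 and 48 h, no member was called in limma, against 1.34% and 3.89% of all genes, with 4 and 9 members at an unadjusted p under 0.05. The values from 24 to 48 h were 0.78 (adjusted p = 0.157) for Kif2c, 0.78 (adjusted p = 0.102) for Kif18b and 0.76 (adjusted p = 0.176) for Kif20a. The higher means at 48 h thus did not pass the test over all genes. With the replicate number as a block, Kif18b and Kif1c were called as higher at 48 h than at 24 h, and Kif26b as higher at 24 h than at 12 h.

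Between 48 and 96 h, 8 members were called, 7 mitotic ones that fell and Kif1c that rose, against 4.64% of all genes (1.96% risen and 2.68% fallen). Kif20a fell by 1.60 (SE 0.30, adjusted p = 0.000506), Kif18b by 1.58 (SE 0.27, adjusted p = 0.000148) and Kif4 by 1.25 (SE 0.21, adjusted p = 0.000142). Kif11, at -1.49 (adjusted p = 0.000169), and Kif23, at -1.13 (adjusted p = 0.000902), fell although 1 array at 96 h, the third, reached into the range of the 48 h arrays. Kif2c fell by 1.28 (adjusted p = 0.00608) and Kif22 by 1.08 (adjusted p = 0.0165). The call for Kif2c was lost without 96 h replicate 1, at -1.01 (adjusted p = 0.0932). The call for Kif22 was lost without 48 h replicate 1 or 3 or 96 h replicate 1, at -1.09, -1.07 and -0.74 (adjusted p = 0.0537, 0.0545 and 0.211). Fitted on these 6 arrays alone, none of the 8 passed, at adjusted p between 0.062 and 0.253. Between 96 and 144 h no member was called, against 0.313% of all genes. There, 5 mitotic members (Kif2c, Kif11, Kif18b, Kif22, Kif23) had an unadjusted p under 0.05, all with negative differences, such as -1.05 for Kif2c.

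Genes that work beside the mitotic kinesins fell at the same times. Of 20 spindle and cytokinesis partners, 14 fell and 1 rose between -24 h and 0 h. Measured from 0 h, 14, 6, 20 and 20 fell at 24, 48, 96 and 144 h, and none rose. Between 48 and 96 h, 17 fell. Of all genes, 5.86% fell and 7.26% rose between -24 h and 0 h, and 2.68% fell between 48 and 96 h. The shares fallen at 24, 48, 96 and 144 h against 0 h were 7.42%, 14.3%, 17.1% and 14.9%. Bub1, a spindle checkpoint kinase, fell by 3.51 (SE 0.32) at 144 h, and Hmmr, a spindle assembly factor, fell by 3.16 (SE 0.25). Ect2, which triggers the contractile ring, fell by 3.13 (SE 0.35), and Aurkb, the kinase of the chromosomal passenger complex, fell by 2.71 (SE 0.31). Prc1, which bundles the central spindle with Kif4, fell by 2.24, and Racgap1, the partner of Kif23 in centralspindlin, fell by 1.63.

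Proliferation markers moved in the same samples. Of 14 measured, 9 fell between -24 h and 0 h, and 6, 3, 13 and 13 fell at 24, 48, 96 and 144 h against 0 h, with none risen. Between 48 and 96 h, 13 fell, and the shares of all genes were those given above for the partners. At 144 h Mki67, the antigen Ki-67, had fallen by 3.17 (SE 0.42) and Top2a, which untangles replicated DNA, by 3.00 (SE 0.27). The part of a changing share of dividing cells in the kinesin values was not tested.

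By a Pearson correlation over the 16 group means, the genes outside the family most like Kif11 were Shcbp1 (0.993), Bub1 (0.993), Anln (0.991), Plk4 (0.99) and Top2a (0.989). This is a description of 16 groups that share a platform and a time course.

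The calls among the transport kinesins were smaller in size and most numerous at 48 h. Of 15, none rose and 3 fell at 24 h against 0 h, 2 rose and 8 fell at 48 h, 1 rose and 5 fell at 96 h, and 1 rose and 1 fell at 144 h. Their median difference was -0.20, -0.36, -0.11 and -0.06 at these times. Of all genes, 6.56%, 12.4%, 15.5% and 13.5% were called as risen at these times, and 7.42%, 14.3%, 17.1% and 14.9% as fallen. At 48 h, Kif3b, Kif3c and Kif13b were not called after quantile normalization again (adjusted p = 0.258, 0.146 and 0.0845). On the mean of probe sets, Kif3b and Kif3c were not called there either (adjusted p = 0.229 and 0.694). For Kif3b, Kif3c, Kif5c, Kif13a and Kif13b, only 1 probe set of several was called as fallen at 48 h.

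Kif3a and Kif3b are the heavy chains of heterotrimeric kinesin-2, which carries components into cilia. Kif3a read 7.93, 7.91 and 8.31 at 0 h and 6.89, 6.38 and 7.59 at 48 h, without overlap, a difference of -1.09 (SE 0.26, adjusted p = 0.00151). All 4 probe sets of Kif3a fell at this time. At 96 h it read 7.52, 6.36 and 7.40 and at 144 h 8.11, 7.03 and 7.06, where the first array lay among those of 0 h. The value at 96 h was -0.95 (SE 0.26, adjusted p = 0.00432), and without 96 h replicate 2, the lowest array, it was -0.58 (adjusted p = 0.108). The value at 144 h, -0.65 (SE 0.26, adjusted p = 0.0626), was not called, although 2 of its other probe sets were. Kif3b read 6.66, 6.25 and 6.18 at 0 h and 5.84, 6.01 and 6.15 at 48 h. The 48 h arrays were below all 0 h arrays. Kif3b fell by 0.36 (SE 0.14, adjusted p = 0.0422), and the call was lost without 0 h replicate 1 or 48 h replicate 1 or 2, at -0.21, -0.29 and -0.37 (adjusted p = 0.31, 0.181 and 0.0919).

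Kif16b, which moves early endosomes, read 5.77, 5.85 and 6.33 at 0 h, 4.53, 5.26 and 5.71 at 24 h and 4.67, 4.62 and 5.28 at 48 h. No array at 24 or 48 h reached the 0 h range. It fell by 0.81 (SE 0.24, adjusted p = 0.0183) at 24 h and by 1.12 (SE 0.24, adjusted p = 0.000432) at 48 h. The call at 24 h was lost without 0 h replicate 3 or 24 h replicate 1, at -0.64 and -0.50 (adjusted p = 0.136 and 0.218). At 96 h the value was -0.74 (adjusted p = 0.0163) and at 144 h it was not called, at -0.54 (adjusted p = 0.0953). The call at 96 h was lost without 0 h replicate 3 or 96 h replicate 2, at -0.56 and -0.40 (adjusted p = 0.12 and 0.261).

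Kif21a, which slows microtubule growth at the cell edge, was called at all 4 late times. It read 5.84, 5.88 and 5.90 at -24 h and 5.39, 5.19 and 5.91 at 0 h. It read 4.54, 4.60 and 4.66 at 24 h, 4.84, 4.27 and 4.13 at 48 h, 4.40, 4.01 and 4.39 at 96 h and 4.73, 4.26 and 4.52 at 144 h, with every array below the lowest of 0 h. The differences were -0.90 (SE 0.22, adjusted p = 0.00505) at 24 h and -0.99 (SE 0.22, adjusted p = 0.000607) at 144 h. The call at 24 h was lost without 0 h replicate 3, at -0.69 (adjusted p = 0.0702). Its group means of 4.26 to 5.87 stayed below 6, and another of its probe sets, whose mean over all arrays was 3.68, was called as risen at 48 h, by 0.35 (SE 0.12, p adjusted over all probe sets = 0.0256).

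Kif5c, a conventional kinesin heavy chain best known from neurons, read 7.09, 7.10 and 7.58 at 0 h and 6.67, 6.43 and 6.79 at 48 h. Its groups did not overlap, and it fell by 0.62 (SE 0.17, adjusted p = 0.00873) at 24 h and by 0.63 (SE 0.17, adjusted p = 0.00391) at 48 h. Without 0 h replicate 3 neither was called, at -0.46 and -0.47 (adjusted p = 0.106 and 0.0606), and without 24 h replicate 1 the first was -0.57 (adjusted p = 0.0517). Only 1 of the 4 Kif5c probe sets was called as fallen at 24 h and at 48 h. The mean of these probe sets was not called at 24 h, at -0.14 (adjusted p = 0.183), but was called as fallen at 48 h. Kif13a and Kif13b, endosomal motors of the kinesin-3 family, were called only at 48 h against 0 h. Kif13a read 7.27, 7.26 and 7.25 at 0 h and 6.86, 6.21 and 7.13 at 48 h, without overlap, and fell by 0.52 (SE 0.17, adjusted p = 0.0204). This was lost without 48 h replicate 2, at -0.26 (adjusted p = 0.328), and without 0 h replicate 3, at -0.53 (adjusted p = 0.0516). Kif13b read 5.90, 5.91 and 5.79 at 0 h and 5.39, 5.25 and 5.73 at 48 h, without overlap, and fell by 0.41 (SE 0.12, adjusted p = 0.00794). It was lost without 48 h replicate 2, at -0.30 (adjusted p = 0.0929), and the mean of its probe sets gave 0.01. Kif3c, at -0.30 (adjusted p = 0.0228), also fell at 48 h, and Kif1a, a carrier of synaptic vesicle precursors, rose by 0.36 (adjusted p = 0.00909) at a group mean of 4.32, with overlap between the arrays. Kif3c lost its call without 0 h replicate 1 or 2 or 48 h replicate 1, at adjusted p = 0.112, 0.0634 and 0.0726, and Kif1a lost it without 0 h replicate 3, at 0.20 (adjusted p = 0.188).

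Kif1c, a kinesin-3 motor of adhesion and secretory cargo, was the transport member with a lasting rise. It read 8.61, 8.44 and 8.46 at 0 h and 8.85, 8.69 and 8.86 at 48 h. It read 9.26, 9.19 and 9.25 at 96 h and 9.10, 9.30 and 9.21 at 144 h. The arrays of 48 h lay just above 0 h, and those of 96 and 144 h above both. It rose by 0.30 (SE 0.09, adjusted p = 0.0105) at 48 h and by 0.70 (SE 0.09, adjusted p = 5.44e-08) at 144 h. The step from 48 to 96 h was 0.44 (SE 0.09, adjusted p = 0.00143). The call at 48 h was lost without 0 h replicate 2, at 0.26 (adjusted p = 0.0532).

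Kif5b, the ubiquitous heavy chain of conventional kinesin, varied widely between replicates. It read 9.72, 9.37 and 9.38 at -24 h and 8.69, 8.62 and 9.27 at 0 h. It read 8.22, 7.57 and 9.12 at 48 h, 8.83, 7.84 and 8.50 at 96 h and 10.49, 8.18 and 8.67 at 144 h. At 144 h the first array was above and the second below all 0 h arrays, and the difference was 0.25 (SE 0.44, adjusted p = 0.746). Against -24 h it fell by 1.19 (adjusted p = 0.0357) at 48 h and by 1.10 (adjusted p = 0.0436) at 96 h. Both calls were among those lost when single arrays were left out. Kif1b, which carries mitochondria and synaptic vesicle precursors, read 7.45, 7.56 and 7.87 at 0 h and 8.73, 7.72 and 7.81 at 144 h, with overlap. It was not called at 144 h, at 0.46 (SE 0.23, adjusted p = 0.134). Of its 7 probe sets, 2 others differed at 48 h, at -0.86 and -0.59, and 2 more rose at 144 h, by 0.75 and 0.68.

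**Figure D3:**
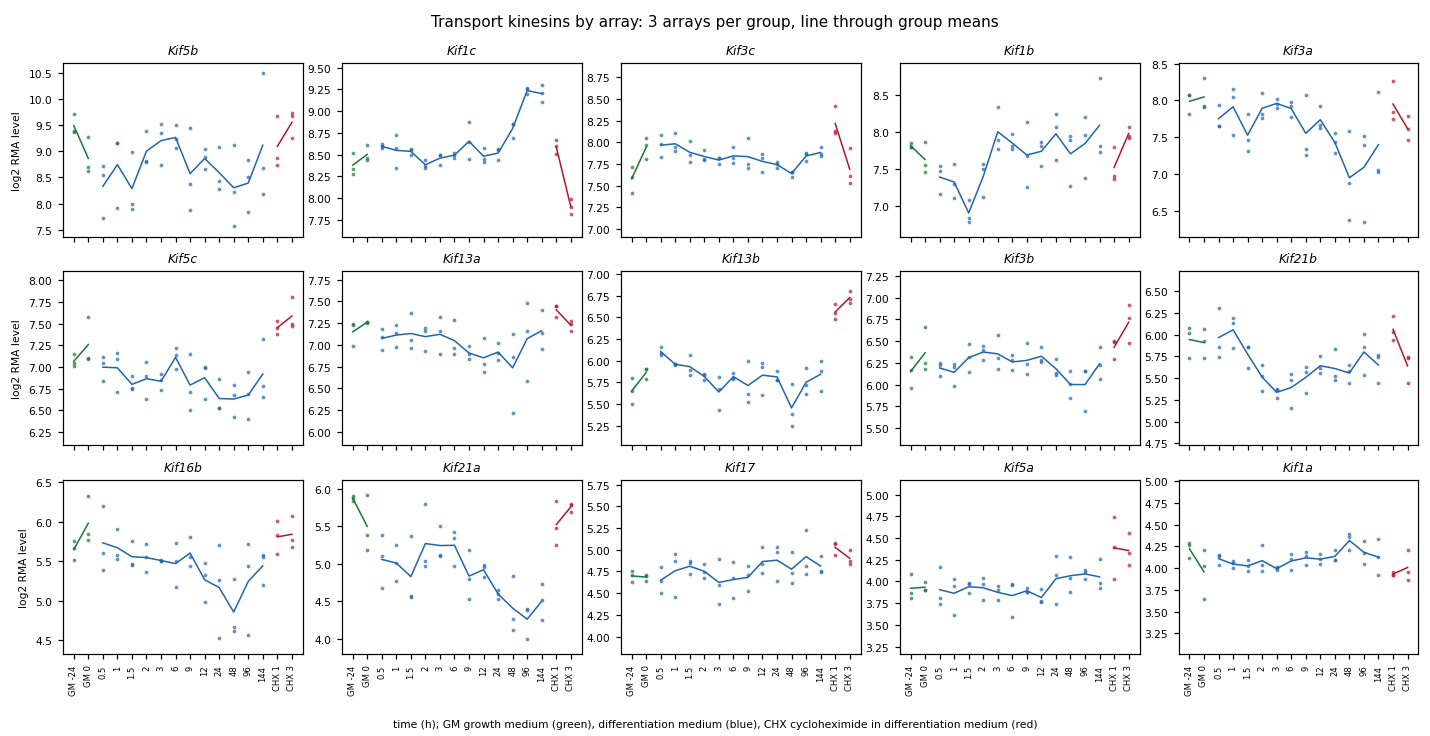
Each panel shows a transport kinesin, with the 3 arrays of a group as dots and a line through the group means on the log2 scale of the RMA level; colours are green for growth medium, blue for differentiation and red for cycloheximide, and the axes differ between panels. Kif1c stands above its 0 h arrays at 96 and 144 h, Kif3a is lowest at 48 h, and the 144 h arrays of Kif5b spread from 8.18 to 10.49.

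Proteins that join kinesins to cargo did not move as 1 group. Of 15 light chains and adaptors, 2 rose and 1 fell at 24 h, 2 and 3 at 48 h, 4 and 4 at 96 h, and 4 and 3 at 144 h, all against 0 h. Of all genes, 6.56%, 12.4%, 15.5% and 13.5% rose at these times, and 7.42%, 14.3%, 17.1% and 14.9% fell. At 144 h Fez1, an adaptor of conventional kinesin, rose by 3.60 (SE 0.20), and Klc1, a kinesin light chain, by 0.85 (SE 0.13). Spag9, a scaffold that binds light chains, fell by 1.14 (SE 0.29), and Kifap3, the third subunit of kinesin-2, fell by 0.66 (SE 0.10).

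The opposing motor and the track were mixed too. Of 19 dynein and dynactin genes, 4 rose and 4 fell at 144 h, with 13.5% of all genes risen and 14.9% fallen against 0 h. Dync1i1, a dynein intermediate chain, fell by 2.56 (SE 0.20), Nde1, a dynein regulator, fell by 0.69 (SE 0.12), and the cargo adaptor Bicd2 rose by 0.82 (SE 0.18). Of 24 tubulins and microtubule-associated proteins, 4 rose and 6 fell, beside the same shares of all genes. Tuba4a, an alpha tubulin, rose by 2.07 (SE 0.13), Mapre2, a plus-end binding protein, fell by 2.57 (SE 0.27), and Stmn1, which sequesters tubulin, fell by 1.96 (SE 0.18).

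A further 6 kinesins, whose symbols fall outside the naming rule, were set beside the members. At 144 h against 0 h, 1 rose and 3 fell, beside 13.5% of all genes risen and 14.9% fallen. Cenpe, the kinetochore kinesin, fell by 2.40 (SE 0.46), Stard9 by 1.22 (SE 0.16) and Kifc1, a minus-end motor of the spindle, by 1.03 (SE 0.20). Kifc3, a minus-end motor of junctions and the Golgi, rose by 1.61 (SE 0.23).

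Among the other kinesins, Kif26b had the largest rise of the family and was the member called as risen before 24 h. It belongs to an atypical subfamily that binds microtubules with little motor activity and is known from Wnt5a-Ror signalling. Its arrays read 4.99, 5.03 and 4.98 at -24 h and 4.76, 4.45 and 4.69 at 0 h. They read 5.88, 5.12 and 5.53 at 9 h and 5.88, 5.42 and 5.70 at 12 h. They then read 6.35, 6.49 and 6.16 at 24 h, 6.80, 6.80 and 6.67 at 48 h, 6.81, 6.60 and 6.94 at 96 h and 6.67, 7.10 and 7.33 at 144 h. From 9 h on, every array was above every 0 h array, and the means were higher at each later time.

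Kif26b was the member called at 9 and 12 h in the model over all arrays, when 1.36% and 2.82% of all genes were called, 0.748% and 1.19% as risen. The rise was 0.87 (SE 0.19, adjusted p = 0.00973) at 9 h and 1.03 (SE 0.19, adjusted p = 0.00105) at 12 h. The call at 9 h was lost without 9 h replicate 1, at 0.69 (adjusted p = 0.157), and without 0 h replicate 2, at 0.78 (adjusted p = 0.0999). The later rises were 1.70 (SE 0.19, adjusted p = 2.11e-08) at 24 h and 2.40 (SE 0.19, adjusted p = 5.66e-13) at 144 h, the last being 5.28-fold. No step between neighbouring times from 24 h on was called. The steps were 0.43 (adjusted p = 0.258) from 24 to 48 h, 0.02 (adjusted p = 0.981) from 48 to 96 h and 0.25 (adjusted p = 0.759) from 96 to 144 h. The array carries 1 probe set for this gene. Over the 16 group means, the genes most like it outside the family were Uqcc1 (Pearson correlation 0.974), Abhd1 (0.972), Fads3 (0.971), Scx (0.970) and Coprs (0.970).

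Kif2a, a microtubule depolymerase that also works outside mitosis, had the largest fall among the other kinesins. It read 8.72, 8.66 and 8.46 at -24 h, 7.84, 7.86 and 8.34 at 0 h and 7.12, 6.34 and 7.50 at 48 h. It read 6.57, 5.41 and 6.72 at 96 h and 7.26, 6.15 and 5.93 at 144 h, below 0 h without overlap. The differences were -1.02 (SE 0.31, adjusted p = 0.0108) at 48 h, -1.78 (SE 0.31, adjusted p = 1.62e-05) at 96 h and -1.57 (SE 0.31, adjusted p = 9.78e-05) at 144 h. The call at 48 h was lost without 48 h replicate 2 or 0 h replicate 3, at -0.70 and -0.86 (adjusted p = 0.141 and 0.0734). Kif7, a ciliary regulator of Hedgehog signalling, fell by 0.36 (adjusted p = 0.0244) at 48 h and by 0.32 (adjusted p = 0.0423) at 96 h. Kif26a rose at 96 h, by 0.35 (adjusted p = 0.00671), from 3.69 to 4.04. The calls of Kif7 and Kif26a were lost when single arrays were left out.

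**Figure D4:**
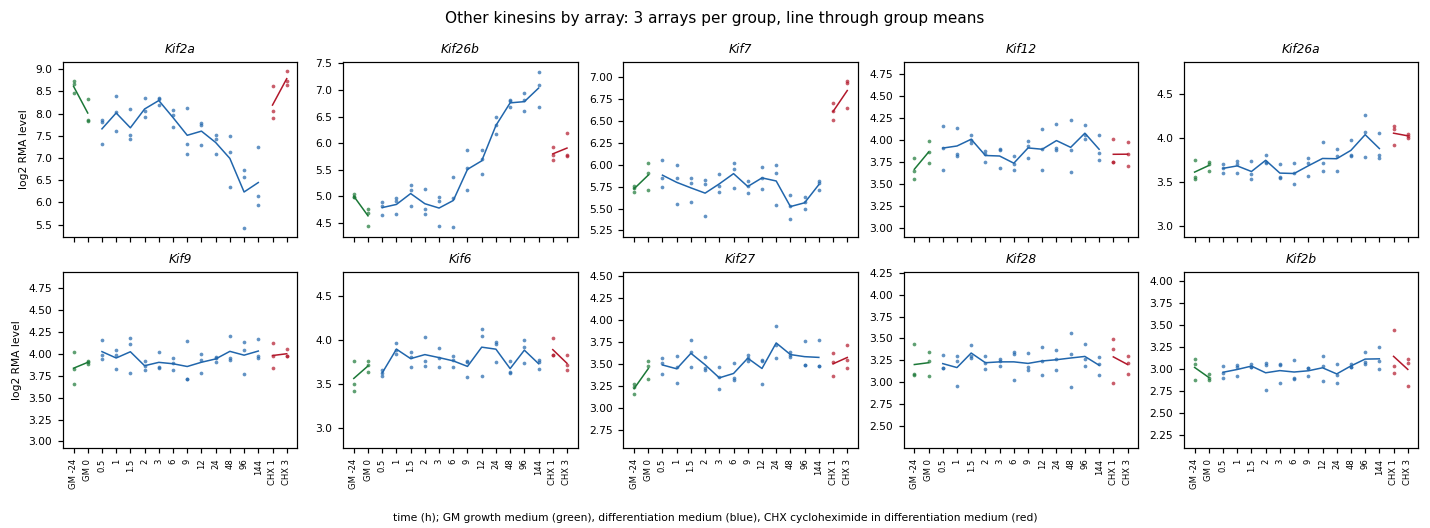
Each panel shows a kinesin grouped as other, with the 3 arrays of a group as dots and a line through the group means on the log2 scale of the RMA level; green is growth medium, blue differentiation and red cycloheximide, and the axes differ between panels. Kif26b climbs from a mean of 4.63 at 0 h to 7.03 at 144 h and is raised in both cycloheximide groups, while Kif2a falls from 8.01 to 6.45.

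The members Kif2b, Kif6, Kif9, Kif12, Kif14, Kif15, Kif17, Kif27, Kif28, Kif5a, Kif18a, Kif1b, Kif5b and Kif21b were called at no time against 0 h. Of the 37 members, 23 reached a group mean of 6 in at least 1 group, 10 of 12 mitotic, 10 of 15 transport and 3 of 10 other kinesins, as did 9068 of 18193 genes. Those that stayed below were Kif1a, Kif2b, Kif5a, Kif6, Kif9, Kif12, Kif14, Kif15, Kif16b, Kif17, Kif21a, Kif26a, Kif27 and Kif28. For these a small difference in transcript may not be detectable.

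Measured from the growing cells of -24 h, more members were called. Of 37, 4 rose and 11 fell at 24 h, 4 and 14 at 48 h, 8 and 13 at 96 h, and 5 and 11 at 144 h, against 26.8%, 30.1%, 38.9% and 34.8% of all genes called. As risen, 13.5%, 14.7%, 20.6% and 17.8% of all genes were called, and as fallen 13.2%, 15.3%, 18.3% and 17%. Centring on housekeeping genes gave 5207 risen and 1715 fallen genes at 24 h in place of 2465 and 2403, with 7 members risen and 11 fallen. At 144 h the differences of Kif20b, Kif18b, Kif20a and Kif18a were -4.05 (adjusted p = 1.47e-09), -3.05 (adjusted p = 5.03e-12), -3.04 (adjusted p = 1.05e-10) and -2.34 (adjusted p = 6.50e-10). The rises were 2.03 (adjusted p = 2.12e-11) for Kif26b and 0.82 (adjusted p = 8.85e-10) for Kif1c, with Kif27, Kif3c and Kif26a at 0.36, 0.30 and 0.27. The calls of these last 3 were lost when single arrays were left out, at adjusted p up to 0.259.

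In cycloheximide the share of kinesins called was not above that of all genes. Against untreated cells at 1 h, 7 of 37 rose and none fell, with 24.6% of all genes called (24.2% risen and 0.418% fallen). At 3 h, 9 rose and 1 fell, with 34.4% of all genes called (30.9% and 3.42%). The risen members were thus 18.9% and 24.3% of the family, and the fallen one was 2.7%. The median difference over all genes was 0.20 at 1 h and 0.19 at 3 h, so values in treated cells were higher in general. The median level of an array was 4.20 to 4.24 in the 6 treated arrays and 4.0 to 4.16 in the other 42. After a further quantile normalization the split of all genes was 4.42% risen and 2.36% fallen at 1 h and 12.9% and 11.1% at 3 h. Of the kinesins, 1 then rose at 1 h, and 4 rose and 3 fell at 3 h. Against the common 0 h arrays, 7 members rose at 1 h in the inhibitor, and 8 rose and 1 fell at 3 h, with 29% and 33.8% of all genes called. The count against untreated cells at 1 h was 4 in place of 7 without cycloheximide 1 h replicate 1.

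Kif7, Kif13b, Kif26b and Kif18a rose at 3 h on the deposited values, after quantile normalization again and after centring on housekeeping genes. Kif7 read 5.90, 5.69 and 5.76 untreated and 6.96, 6.93 and 6.64 treated at 3 h, a rise of 1.06 (SE 0.12, adjusted p = 5.26e-09). At 1 h it read 5.99, 5.55 and 5.85 untreated and 6.70, 6.61 and 6.51 treated, a rise of 0.81 (SE 0.12, adjusted p = 4.86e-06), and it was the member called at 1 h on the deposited values and after quantile normalization again. Treated and untreated arrays did not overlap at either time. Kif13b read 5.43, 5.68 and 5.82 untreated and 6.71, 6.80 and 6.67 treated at 3 h, a rise of 1.09 (SE 0.12, adjusted p = 1.60e-09), and its arrays did not overlap. Its rise at 1 h was 0.60 (SE 0.12, adjusted p = 0.000232).

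Kif26b, the gene that rose without the inhibitor from 9 h on, was already higher in treated cells. It read 4.97, 4.67 and 4.90 untreated and 5.78, 5.69 and 5.92 treated at 1 h, and 4.91, 4.44 and 4.98 untreated and 6.18, 5.78 and 5.76 treated at 3 h. No arrays overlapped, and the rises were 0.95 (SE 0.19, adjusted p = 0.000291) and 1.13 (SE 0.19, adjusted p = 9.58e-06). Kif18a read 5.32, 4.73 and 4.70 untreated and 5.55, 5.87 and 6.48 treated at 3 h, without overlap, a rise of 1.05 (SE 0.25, adjusted p = 0.00103). The spindle motor Kif11 had a difference of -0.08 (adjusted p = 0.84) at 3 h and was not called.

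The other rises called on the deposited values were not called after quantile normalization again. After centring on housekeeping genes Kif5c, Kif5a, Kif26a and Kif3b were still called at 3 h and Kif26b at 1 h. At 3 h these rises were Kif5c, at 0.75, Kif24, at 0.49, Kif5a, at 0.48, Kif26a, at 0.42, and Kif3b, at 0.36. At 1 h they were those of Kif26b and Kif13b above, Kif5a, at 0.52, Kif24, at 0.49, Kif5c, at 0.46, and Kif26a, at 0.37. Leaving out single arrays ended the calls of Kif24, Kif5a and Kif5c at 1 h and of Kif24, Kif3b and Kif5a at 3 h. Only 1 of the 3 Kif5a probe sets was called as risen at each time. Without _x_at and _s_at probe sets Kif5a was not called, at 0.03 (adjusted p = 0.867) at 1 h and 0.13 (adjusted p = 0.384) at 3 h. On the mean of its probe sets it was called as risen at both times.

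Kif1c was the member called as fallen in cycloheximide against untreated cells in the model over all arrays. Kif3a was called as fallen as well at 3 h in a fit on the arrays compared alone, and Kif3a and Kif3c after quantile normalization again. Kif1c read 8.50, 8.38 and 8.49 untreated and 7.90, 7.99 and 7.81 treated at 3 h, without overlap, a difference of -0.56 (SE 0.09, adjusted p = 4.31e-06). At 1 h it read 8.34, 8.73 and 8.57 untreated and 8.50, 8.59 and 8.67 treated, with overlap, a difference of 0.04 (SE 0.09, adjusted p = 0.777). The difference between the 2 times was itself called, at -0.60 (SE 0.13, adjusted p = 0.00219), and Kif1c was the kinesin for which it was in this model, against 4.29% of all genes (2.65% higher and 1.64% lower at 3 h). It was called in each of the 12 fits that left out 1 of the arrays compared, and after quantile normalization again. It was -0.26 (adjusted p = 0.303) on the mean of its probe sets, -0.36 (adjusted p = 0.111) after centring on housekeeping genes and -0.60 (adjusted p = 0.062) in a fit on those arrays alone. Of the 4 Kif1c probe sets, 2 others than the chosen one were called as fallen at 1 h, and 3 were at 3 h. The mean of these probe sets was called as fallen at both times. After centring on housekeeping genes Kif13b was called in place of Kif1c, at 0.72 (SE 0.21, adjusted p = 0.0224), with 1408 genes higher and 115 lower in place of 482 and 298.

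**Figure D5:**
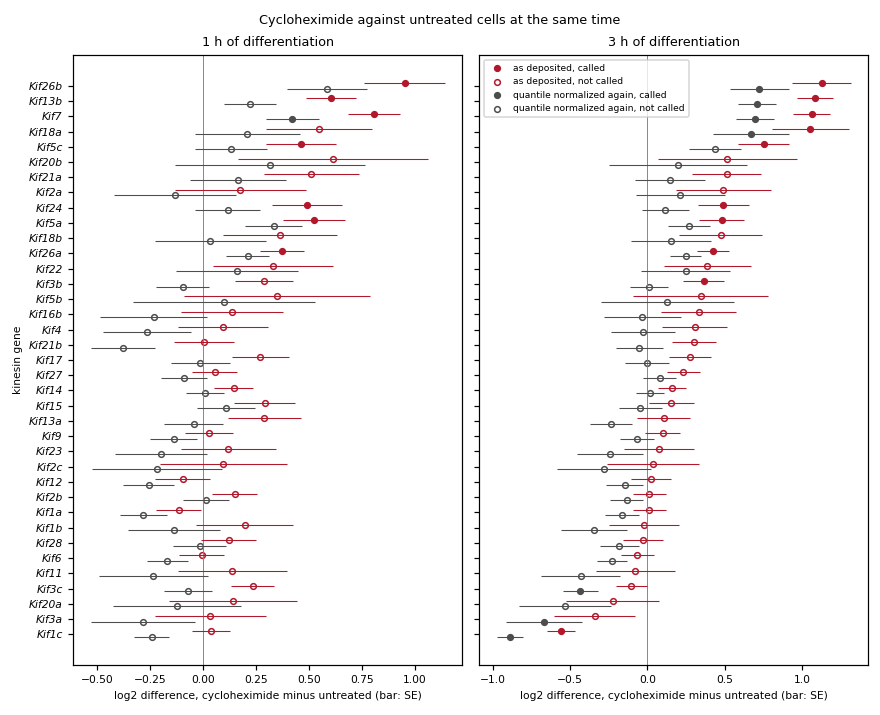
For each kinesin gene (rows), the log2 difference of cycloheximide-treated minus untreated cells is plotted at 1 h (left) and 3 h (right), with bars of 1 SE; red is the deposited scaling, grey the values after quantile normalization again, and filled points are called by limma. The grey points lie to the left of the red ones, Kif7 is filled in both colours at both times, and Kif1c is the red filled point below 0 at 3 h.

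Probe sets of 1 gene did not always give the same call. The 37 genes have 99 probe sets, and 25 genes have several. At 144 h against 0 h, 8 genes with several probe sets were called, and for Kif11 and Kif22 all probe sets were called alike. Another probe set was called at that time while the chosen one was not for Kif16b, Kif17, Kif1b, Kif24, Kif3a and Kif5c. At 96 h, 12 such genes were called, all probe sets were called alike again for Kif11 and Kif22, and another probe set was called alone for Kif12 and Kif24. Of the comparisons with 0 h from 24 h on, opposite calls within 1 gene occurred at 48 h and only for Kif21a.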

How the data were processed

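The deposited values are log2 probe set levels from Affymetrix arrays, made by the authors with RMA (background correction, normalization between arrays and summary per probe set), per the submitters' processing notes. The version of RMA and whether the 48 arrays were normalized together are not given in the sources used here. Of 45101 probe sets, 64 control probe sets, 932 with several symbols or identifiers and 9160 with no symbol were left out, and the 34945 left were reduced to 18193 genes by taking the probe set with the highest mean. Symbols come from the platform annotation of 2016. A 16-group model with 32 residual degrees of freedom was fitted with limma 3.58.1 (R 4.3.3), followed by its moderated tests and Benjamini-Hochberg adjustment. The procedure was tested on simulated data with independent noise for each array and changes added at 96 h only. Shared deviations of same-numbered arrays and shifts in scaling were not simulated. The 3 arrays per group limit the precision.

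Levels are given for the up to 10 risen and 10 fallen called members of largest difference in each comparison and for a fixed set of members of known roles. For other gene lists, counts and up to 4 called genes are given. The members, the lists and the tests were chosen with earlier results of these data known. Alternatives were the replicate number as a block, quantile normalization again, centring on 15 housekeeping genes, the mean of a gene's probe sets, no probe sets of the _x_at and _s_at kinds, a group mean of at least 6, eBayes with trend and robust settings, a fit on the arrays compared alone, and leaving out each array. Replicate numbers come from the labels. In 16 of 25 comparisons all 3 same-numbered pairs deviated together (correlation over 0.1), among them 24 h against 12 h, 48 h against 24 h and most early times against 0 h. In 9, among them 144 h against 0 h and 0 h against -24 h, they did not. Promoter entries came from RefSeq tables, and 6 members had no entry there.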

Additional observations from a re-analysis of the deposited data

Results flagged for a closer look

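On its chosen probe set, the response of Kif1c to cycloheximide differed between harvest times by a test of that difference itself. Treated minus untreated cells gave 0.04 at 1 h and -0.56 at 3 h, and the difference between the 2 was -0.60 (SE 0.13, adjusted p = 0.00219 in limma). All 3 treated arrays were below all 3 untreated arrays at 3 h, while the arrays overlapped at 1 h. Of the 4 Kif1c probe sets, 2 others were called as fallen at 1 h already, and 3 were at 3 h. The mean of these probe sets was called as fallen at both times. The difference between the times was not called on that mean, in a fit on the arrays compared alone or after centring on housekeeping genes. The last of these brought the median of all genes in this comparison to 0.25, from 0.01.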

How the results depend on the processing

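Each comparison was repeated under the alternatives, and 186 member values that had been called or are always reported were followed. Of these, 153 kept direction and call after quantile normalization again, 163 after centring on housekeeping genes, 168 on the mean of probe sets, 181 without _x_at and _s_at probe sets, 178 with trend and robust eBayes and 143 in fits on the arrays compared alone. With the replicate number as a block, 185 kept direction and call and 1 passed in addition. Reversed signs were Kif13b at 48 h against 0 h on the mean of probe sets (0.0091) and Kif3b in cycloheximide at 3 h against 0 h after quantile normalization again (-0.018).

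With the replicate block, 3 members were called between 0.5 and 12 h in place of 1, 1 between 12 and 24 h, 2 between 24 and 48 h and 1 between 96 and 144 h, each in place of 0. The last pairing rests on numbers alone. The block moved no other count of calls by over 1.5 times. At 0 h against -24 h the block gave 9 in place of 7, with Kif18b and Kif20a. At 144 h against 0 h it gave 14 in place of 12, with Kif3a and Kif16b. In both comparisons the same-numbered pairs did not all correlate over 0.1. By their deviations from the group means, 44 of 48 arrays correlated best, on average, with arrays of their own number. The labels describe the triplicates as successive passages, and whether a number marks the same passage in every group was not tested. At a group mean of at least 6, 2 were called between 0.5 and 12 h, 1 between 12 and 24 h and 1 between 24 and 48 h. After quantile normalization again, 1 was called between 12 and 24 h and 1 in cycloheximide at 1 h in place of 7. Centring on housekeeping genes gave 3 there and the mean of probe sets 11. The mean of probe sets gave 10 in place of 16 at 48 h and 0 in place of 1 for the difference between cycloheximide times. On the arrays compared alone, 3 were called between 0.5 and 12 h, 8 at 48 h, 1 between 12 and 24 h, 3 between 24 and 48 h, 0 in place of 8 between 48 and 96 h, 3 in cycloheximide at 1 h and 0 for the difference between its times. These fits have fewer arrays. Other causes were not tested.

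Leaving out 1 array at a time gave 18 to 22 members by the F-test, 5 to 7 at 0 h against -24 h, 1 to 2 between 0.5 and 12 h, and 6 to 9, 10 to 16, 13 to 18 and 11 to 14 at 24, 48, 96 and 144 h. It gave 14 to 18 at 144 h against -24 h, 0 to 0 between 12 and 24 h, 0 to 1 between 24 and 48 h, 6 to 9 between 48 and 96 h and 0 to 1 between 96 and 144 h. In cycloheximide it gave 4 to 6 at 1 h, 8 to 11 at 3 h and 1 to 1 for the difference. Calls kept without each array numbered 3 of 11 at 24 h, 5 of 16 at 48 h, 10 of 18 at 96 h and 11 of 12 at 144 h.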
